A study of Mus musculus with 6 samples.

Results

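The glycosyltransferases that build mucin-type and related glycans were examined in RNA from mouse small intestinal crypts with and without epithelial Fpr2. Members were taken by gene symbol (names beginning Galnt, B3gnt, B3galt, B4galnt, Fut, Gcnt, C1galt1, St3gal or St6gal). Of 62 genes in the table that matched, 48 had an estimated count of 10 or more in at least 3 of the 6 libraries and were kept, out of 17526 genes in all. All 48 were also among the 12943 genes high enough to be tested. The symbol rule does not separate enzymes of mucins from those of other glycans, so enzymes known for glycolipids (B4galnt1, B3galt4, B3gnt5), for N-glycans (Fut8, St6gal1) and for proteoglycans (B3galt6) are members too.

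The 3 knockout libraries came from crypts of mice labelled Fpr2VKO, with a genotype given as loss of Fpr2 from the intestinal epithelium. The 3 floxed control libraries came from Fpr2f/f mice, whose genotype label reads WT. The labels used here name no Cre driver, strain, age or sex, and no other allele in either group. Fpr2 encodes a receptor for formylated peptides, and the study's title asks how it bears on proliferation and differentiation of intestinal stem cells. Nothing in the labels ties the libraries to individual mice, and the p-values below therefore cover library-to-library spread alone, part or all of which may be technical.

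Mucin-type O-glycans are built one sugar at a time in the Golgi apparatus. A polypeptide GalNAc-transferase starts the chain on serine or threonine, and galactose (core 1) or N-acetylglucosamine (core 3) is then added and may be branched. Other enzymes extend the chain and cap it with fucose, sialic acid or GalNAc. In the intestine these chains make up much of the mass of secreted mucins and of the glycocalyx, and they bind or feed bacteria.

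Totals were between 16542933 and 16859902 estimated counts in knockout libraries and between 11108511 and 16695304 in floxed control libraries. Only 2 of 12943 genes (0.0155%), Defa35 and Trpc2, passed over all genes by edgeR's quasi-likelihood test with Benjamini-Hochberg adjustment; they are named because the count is so small. Floxed controls 1 and 3 stood apart from floxed control 2 on the markers of several cell types. The 16 tested T cell and intraepithelial lymphocyte markers summed to between 76.9 and 96.9 CPM (estimated counts scaled to a common library size, after TMM correction for composition) in knockout libraries. The floxed control libraries 1, 2 and 3 had 325.9, 85.4 and 269.2 CPM. Markers of goblet cells, which secrete mucus, summed to 8919 to 13818 CPM in knockout libraries and 14831 to 21986 CPM in floxed control libraries, and all 20 of them had a negative log2 fold change, with 17 at an unadjusted p under 0.05. Paneth cell markers summed to 29695 to 45426 CPM in knockout libraries and 88145 to 172601 CPM in floxed control libraries, with 17 of 17 lower at that p. So were 18 of 20 enteroendocrine, 14 of 16 tuft cell, 7 of 16 crypt base stem cell, 8 of 9 B and plasma cell and 3 of 3 erythroid markers. Over all genes 9.63% were lower at that p, and the 2 of 20 absorptive enterocyte markers that were lower are close to that share. Tuft cell markers summed to 230.3, 159.7 and 185.4 CPM in knockouts 1, 2 and 3 and to 447.6, 230.4 and 393.0 CPM in floxed controls 1, 2 and 3. Erythroid markers summed to 3.44, 1.502 and 3.69 CPM in the knockouts and 15.02, 4.52 and 16.7 CPM in the floxed controls. Enterocyte markers summed to 7251, 10665 and 11730 CPM in the knockouts and 13160, 7842 and 14956 CPM in the floxed controls. In each of these lists floxed control 2 was the lowest control. The summed B and plasma cell markers did not follow that order (1093, 1127 and 569 CPM in the knockouts, 864, 1329 and 1103 CPM in the floxed controls), while their mean centred log2 levels did (-0.15, -0.87 and -0.80 in the knockouts, 1.36, -0.57 and 1.03 in the floxed controls). Most of the summed B and plasma cell level was Cd74, at 916 ± 311 CPM in knockout and 1058 ± 255 CPM in floxed control libraries (SD, n = 3 each). No marker of these lists that was in the table was at 0 in all libraries. In RNA from whole crypts, fewer cells of a type and less RNA per cell cannot be told apart.

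Most members sat a little lower in knockout crypts, while the 3 most abundant enzymes did not differ detectably. Of the 48 members, 39 had a negative log2 fold change (81.3%, against 51.9% of all genes tested), and their median was -0.30, against -0.013 over all genes. By edgeR 0 members passed over all genes. At an unadjusted p under 0.05, 12 members were lower (25%, against 9.63% of all genes) and 0 were higher (against 4.09%). DESeq2 called 5 members lower (10.4%, against 2.35% of all genes) and 0 higher (against 0.294%): St3gal1, St6galnac4, St3gal3, C1galt1c1 and Galnt5. In 9 members every knockout library lay below every floxed control library (18.8%, against 10.3% of all genes), and in 1, B3gntl1, every knockout library lay above (against 6.99%). These counts depend on floxed controls 1 and 3. Without them 2 members, St3gal3 and Fut1, were lower at an unadjusted p under 0.05, with 2.87% of all genes, and the median of the members was -0.13; the lone control library is then assumed to vary like the knockouts. The count of 12 was 6 without floxed control 3, with 4.27% of all genes lower, and 7 without knockout 3, with 6.27%. Without floxed control 2 alone, edgeR called 7 of 48 members and 955 of 13247 genes tested. The 7 were St3gal1, St6galnac4, St3gal3, C1galt1c1, Fut1, Galnt5 and Gcnt3.

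**Figure D1:**
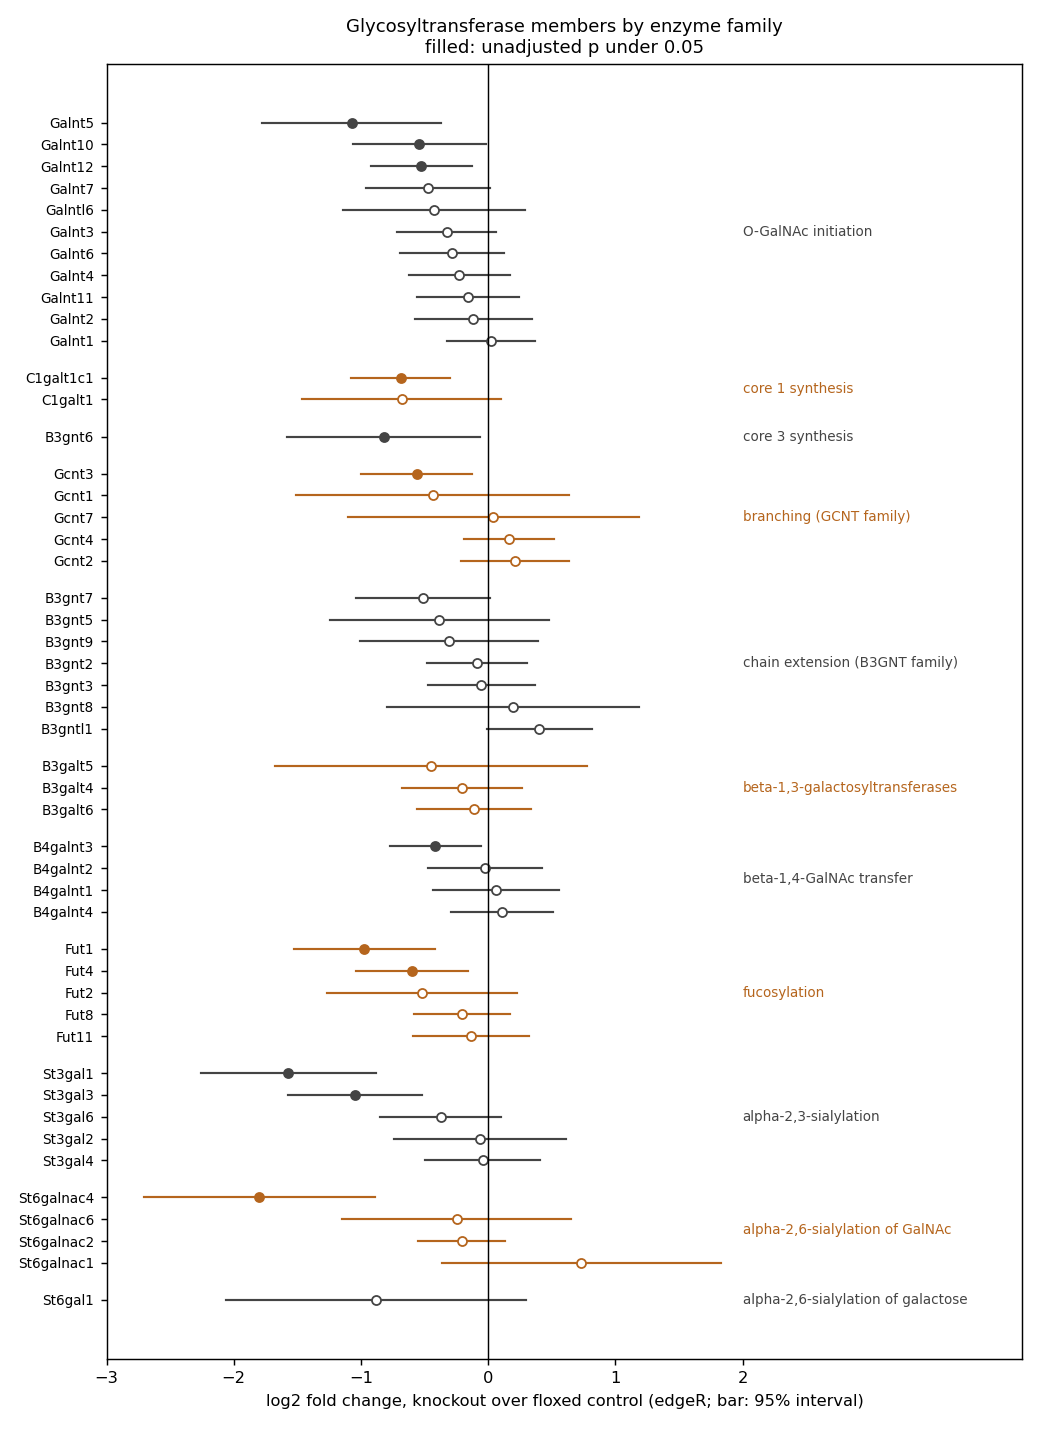
Log2 fold change of each of the 48 members, knockout over floxed control, grouped by enzyme family, with 95% intervals from the edgeR fit; filled points have an unadjusted p under 0.05. All 12 filled points lie to the left of 0, and 25 intervals stay within a 2-fold change either way.

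The promoters of 3 of the members lower at an unadjusted p under 0.05 are shown. Their windows, from RefSeq (GRCm38.p6), lie outside the GENCODE span of the gene itself. Of the 12 members with an unadjusted p under 0.05, 7 had a window. The B4galnt3 window, with 1 E-box and 3 GC boxes, also lies outside the GENCODE span of its gene and is not shown. The RefSeq spans of St3gal3 and B4galnt3, which end at positions 118134972 and 120294917, reach into their windows. Each line is the 250 bases before an annotated start, 5′ to 3′ on the gene's strand. Capitals mark matches on either strand to the E-box CAGNTG, the TCF/LEF site CTTTGAT, the GC box GGGCGG and the CCAAT box. The windows of St3gal3, St6galnac4 and Galnt10 are chr4:118134947-118135196, minus strand; chr2:32586828-32587077, plus strand; and chr11:57645192-57645441, plus strand.
St3gal3: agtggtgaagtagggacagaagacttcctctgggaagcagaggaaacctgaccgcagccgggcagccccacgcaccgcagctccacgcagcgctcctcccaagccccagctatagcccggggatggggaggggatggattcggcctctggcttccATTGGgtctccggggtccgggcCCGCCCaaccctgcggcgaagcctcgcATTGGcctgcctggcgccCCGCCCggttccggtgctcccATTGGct
St6galnac4: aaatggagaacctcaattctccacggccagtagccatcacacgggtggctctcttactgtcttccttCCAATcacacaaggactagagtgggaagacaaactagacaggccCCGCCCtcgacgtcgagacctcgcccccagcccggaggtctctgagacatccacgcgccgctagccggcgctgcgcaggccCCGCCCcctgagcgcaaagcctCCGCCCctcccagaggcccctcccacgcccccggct
Galnt10: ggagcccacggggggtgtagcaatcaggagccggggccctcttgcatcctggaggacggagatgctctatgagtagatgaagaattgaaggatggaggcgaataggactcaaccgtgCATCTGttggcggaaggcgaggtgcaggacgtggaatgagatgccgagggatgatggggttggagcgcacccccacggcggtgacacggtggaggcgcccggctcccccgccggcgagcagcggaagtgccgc
The St3gal3 window held 3 CCAAT boxes and 2 GC boxes, and the St6galnac4 window 1 CCAAT box and 3 GC boxes. Galnt10 had 1 E-box and none of the other motifs. The TCF/LEF letters were in none of the 3 windows, and no matches overlapped. Over all 32851 windows of this length, 44.8% held an E-box, 3.21% the TCF/LEF letters, 32.7% a GC box and 33.8% a CCAAT box. A match is a run of letters, not a shown binding site.

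Levels between members are compared per kilobase of merged GENCODE exons. These values put 3 enzymes far above the others. B4galnt2, which adds the GalNAc of the Sda/Cad blood group antigen, averaged 370.5 ± 71.4 CPM per kb in knockout and 377.6 ± 5.03 CPM per kb in floxed control libraries (SD, n = 3 each). St3gal4, a sialyltransferase of lactosamine chains, averaged 353.2 ± 47.5 CPM per kb in knockout and 363.9 ± 46.3 CPM per kb in floxed control libraries. B4galnt1, the GM2 and GD2 ganglioside synthase, averaged 319.9 ± 37.5 CPM per kb in knockout and 306.4 ± 65.8 CPM per kb in floxed control libraries. The library values of these 3 overlapped one another. The order among them depends on the exon lengths used. On the minus strand, the RefSeq span of B4galnt2 reaches to position 95863559 at its 3′ end, and the GENCODE span to 95865943. The annotation used for counting is not stated, and a longer exon length would lower the B4galnt2 value. The next was B3gnt3, the core 1 extension enzyme, at 68.0 ± 11.2 CPM per kb in knockout and 70.7 ± 11.6 CPM per kb in floxed control libraries. The 3 leading enzymes made up 55.3% ± 3.05 of all member CPM in knockout and 49.7% ± 3.71 in floxed control libraries. Summed over the 48 members, the level was 3886 ± 431 CPM in knockout and 4313 ± 234 CPM in floxed control libraries, and the ranges overlapped, since knockout 1 had 4367 CPM and floxed control 1 had 4063 CPM. At the low end were Gcnt1, Gcnt7 and Galntl6, each under 0.41 CPM per kb in both groups.

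**Figure D2:**
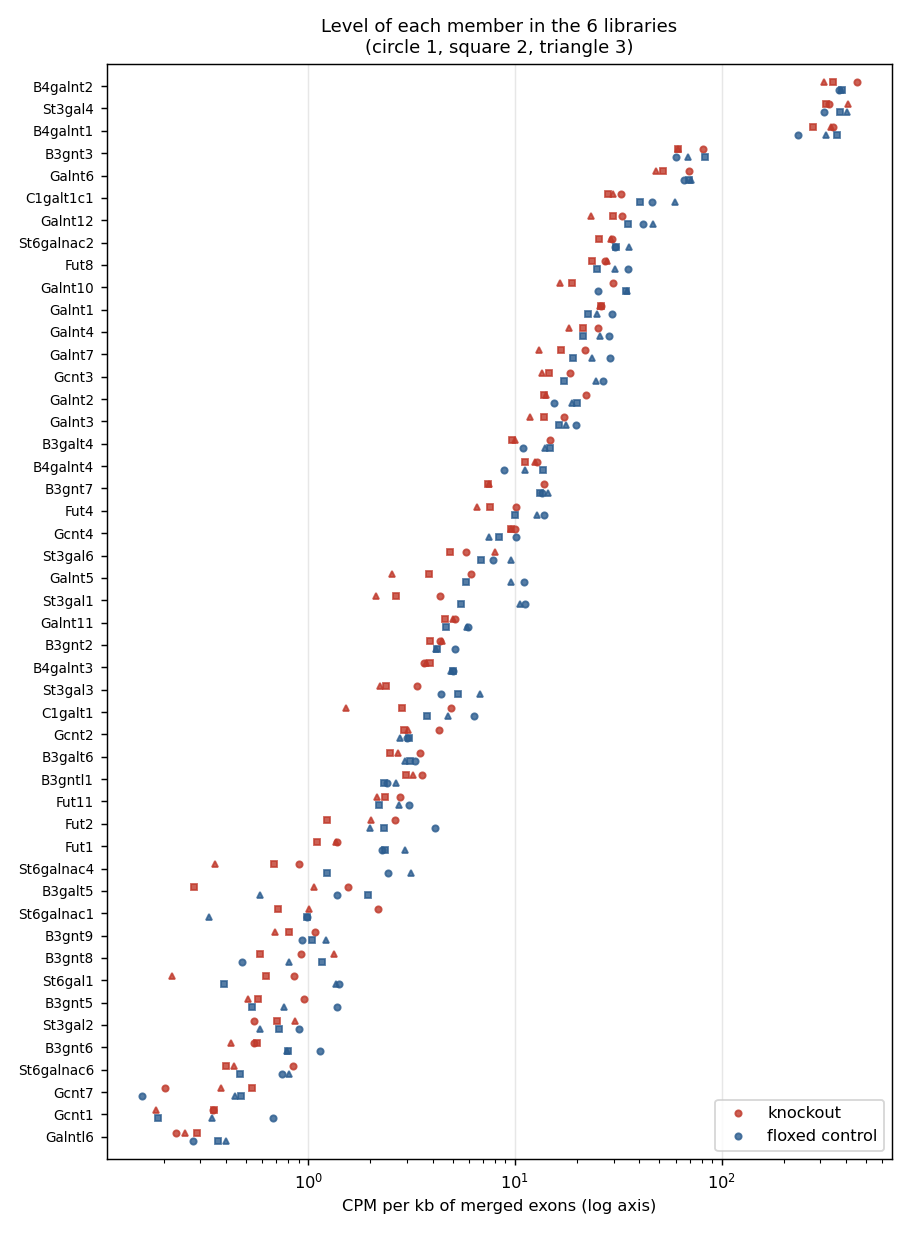
CPM per kilobase of merged exons (log axis) of each member in the 6 libraries, ordered by the mean over all libraries; the knockout points are drawn just above the floxed control points. On GENCODE exon lengths, B4galnt2, St3gal4 and B4galnt1 form a group of their own, with means between 306.4 and 377.6 CPM per kb in either group.

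Of 11 polypeptide GalNAc-transferases, 10 had a negative log2 fold change, with a family median of -0.33; over all genes 51.9% were negative. Of these, 3 were lower at an unadjusted p under 0.05, as were 9.63% of all genes. Galnt5 (chr2:57997850-58041027, GRCm38.p6 as for all positions here), one of these chain-starting enzymes, stood at 27.5, 17.2 and 11.4 CPM in knockouts 1, 2 and 3 and at 49.3, 26.0 and 42.8 CPM in floxed controls 1, 2 and 3. Knockout 1 thus lay above floxed control 2, and the groups overlapped. The log2 fold change of Galnt5 was -1.07 ± 0.32 (SE; adjusted p = 0.191 by edgeR and 0.0401 by DESeq2). It was -0.41 without floxed controls 1 and 3. Galnt12 (chr4:47091894-47123058), whose human counterpart is expressed in the digestive tract and prefers peptides that already carry GalNAc, had 75.2, 68.0 and 53.3 CPM in the knockouts, against 95.5, 80.6 and 106.7 CPM in the floxed controls. The groups did not overlap, and the log2 fold change was -0.52 ± 0.18 (adjusted p = 0.236 by edgeR), or -0.24 without floxed controls 1 and 3. Galnt10, another glycopeptide-preferring enzyme, had 177.3, 113.2 and 98.6 CPM in the knockouts and 150.1, 206.8 and 209.1 CPM in the floxed controls. Here floxed control 1, not 2, was the low control, and the log2 fold change was -0.54 ± 0.24 (adjusted p = 0.350 by edgeR), or -0.61 without floxed controls 1 and 3.

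The other initiating enzymes lay closer to 0. Galnt7, which follows up on sites begun by other members, and Galnt3, known for protecting the hormone Fgf23 from cleavage, had log2 fold changes of -0.47 ± 0.22 and -0.33 ± 0.18. Galnt4 had -0.23 ± 0.18, Galnt6, the most abundant of the family per kilobase, -0.29 ± 0.18, and the broadly expressed Galnt1 0.021 ± 0.16. For Galnt1 the 95% interval ran from -0.33 to 0.37, which leaves out a 2-fold difference. Galntl6, Galnt11 and Galnt2 had log2 fold changes of -0.43, -0.16 and -0.12. Galnt2 shares 93.7% of its exon length with the same-strand gene model Gm20388, and its count is uncertain for that reason. A further 6 genes of the family (Galnt9, Galnt13, Galnt14, Galnt15, Galnt17 and Galnt18) had at most 3 estimated counts in any library and were not kept.

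C1galt1 is the galactosyltransferase that makes core 1, and C1galt1c1, also called Cosmc, is the chaperone it needs to fold. C1galt1c1 (chrX:38630783-38635143) stood at 47.3, 40.8 and 43.2 CPM in the knockouts and at 66.9, 58.5 and 86.6 CPM in the floxed controls. The highest knockout lay below the lowest floxed control. The log2 fold change was -0.69 ± 0.18 (adjusted p = 0.145 by edgeR and 0.0378 by DESeq2), and -0.36 without floxed controls 1 and 3. C1galt1 itself had a similar fold change with far more spread, at 29.7, 17.3 and 9.24 CPM in the knockouts and 38.5, 22.8 and 29.0 CPM in the floxed controls (log2 -0.68 ± 0.35, adjusted p = 0.428 by edgeR). Its value ran from -1.17 without knockout 1 to -0.35 without knockout 3. B3gnt6, the core 3 synthase that is best known from colon, was scarce, with 1.30, 1.34 and 1.01 CPM in the knockouts and 2.71, 1.90 and 1.87 CPM in the floxed controls. The groups did not overlap, but these are 18 to 31 estimated counts a library, and the log2 fold change was -0.82 ± 0.34 (adjusted p = 0.326 by edgeR).

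Gcnt3, which makes core 2 and core 4 branches in mucus-secreting epithelia, had 79.1, 63.1 and 58.4 CPM in the knockouts, against 115.4, 74.7 and 106.3 CPM in the floxed controls. Floxed control 2 was the low control and lay below knockout 1. The log2 fold change of Gcnt3 was -0.56 ± 0.20 (adjusted p = 0.248 by edgeR), and -0.10 without floxed controls 1 and 3. Gcnt4, a second core 2 enzyme, had 51.0, 48.7 and 48.5 CPM in the knockouts and 51.7, 42.6 and 37.9 CPM in the floxed controls (log2 0.16 ± 0.16). The log2 ratio of Gcnt3 to Gcnt4 estimated counts, which needs no scaling between libraries, was 0.63, 0.37 and 0.27 in the knockouts and 1.16, 0.81 and 1.49 in the floxed controls. The groups did not overlap on this ratio. It is one of 6 such pairs, chosen after the values were seen, of which 3 overlapped between groups. The overlapping ones were C1galt1 to C1galt1c1 (-1.38 ± 0.79 in the knockouts and -1.24 ± 0.40 in the floxed controls), B3gnt6 to C1galt1 (-3.80 ± 0.67 in the knockouts and -3.79 ± 0.19 in the floxed controls) and Fut1 to Fut2 (-0.75 ± 0.39 in the knockouts and -0.29 ± 0.71 in the floxed controls; SD, n = 3 each). Gcnt2, which makes the branched I antigen, had a log2 fold change of 0.21 ± 0.19, and Gcnt1, the core 2 enzyme of leukocytes, one of -0.44 ± 0.49 at 14 to 38 estimated counts a library. Gcnt7 was at the edge of the rule, with 4 libraries at 10 or more.

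The 7 B3gnt genes, B3gntl1 among them, were grouped as chain-extending by symbol alone. None of them was lower or higher at an unadjusted p under 0.05 by edgeR. B3gnt3 had a log2 fold change of -0.055 ± 0.19, with a 95% interval from -0.48 to 0.37. B3gnt7, an enzyme of keratan sulphate chains, had 35.8, 19.2 and 19.4 CPM in the knockouts and 34.8, 34.0 and 37.3 CPM in the floxed controls, so knockout 1 sat with the floxed controls (log2 -0.51 ± 0.24, or -0.87 without knockout 1). B3gntl1 was the member with every knockout above every floxed control, at 12.5, 10.5 and 11.4 CPM in the knockouts and 8.47, 8.20 and 9.35 CPM in the floxed controls. Its log2 fold change was 0.40 ± 0.19 (adjusted p = 0.373 by edgeR). It shares 6.7% of its exon length with Tbcd on the opposite strand, and whether counting used strand is not stated. The remaining members, B3gnt2, B3gnt5, B3gnt8 and B3gnt9, had log2 fold changes between -0.38 and 0.19. B3gnt2 shares 73.6% of its exon length with the same-strand gene model Gm28048, and B3gnt4, which reached 10 only in knockout 1 (11.25 estimated counts), was not kept. Among the galactosyltransferases, B3galt5, which makes type 1 chains, varied widely within groups, at 8.69, 1.56 and 5.93 CPM in the knockouts and 7.69, 10.9 and 3.25 CPM in the floxed controls (log2 -0.45 ± 0.55). It was -0.97 without knockout 1, -0.0037 without knockout 2 and -0.96 without floxed controls 1 and 3. B3galt4, of ganglioside synthesis, and B3galt6, of the proteoglycan linker, had -0.21 ± 0.21 and -0.11 ± 0.20, while B3galt1 and B3galt2 had at most 1 estimated count in any library and were not kept.

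The GalNAc-capping enzyme B4galnt2 had 776.3, 597.0 and 540.9 CPM in the knockouts and 640.2, 655.3 and 655.1 CPM in the floxed controls. The 3 floxed controls lay inside the range of the knockouts, and the log2 fold change was -0.027 ± 0.20, with a 95% interval from -0.47 to 0.42. B4galnt1 had 826.8, 663.0 and 808.8 CPM in the knockouts and 561.5, 870.4 and 769.4 CPM in the floxed controls (log2 0.062 ± 0.22, interval -0.43 to 0.55). Slc26a10 lies on the opposite strand over 29.9% of the B4galnt1 exon length, so reads of the 2 genes may be mixed. B4galnt3, which makes the GalNAc-GlcNAc unit called LacdiNAc, had little spread within groups, at 13.3, 14.3 and 13.6 CPM in the knockouts and 18.4, 18.4 and 18.1 CPM in the floxed controls. Its log2 fold change was -0.41 ± 0.16 (adjusted p = 0.293 by edgeR), and -0.36 without floxed controls 1 and 3. B4galnt4, a second LacdiNAc enzyme, had 0.11 ± 0.18.

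Fut1 and Fut2 both make the H antigen and lie 27532 bases apart on chromosome 7. Fut1 (chr7:45617606-45621059) had 3.55, 2.84 and 3.53 CPM in the knockouts and 5.85, 6.10 and 7.58 CPM in the floxed controls, with no overlap. Its log2 fold change was -0.97 ± 0.25 (adjusted p = 0.148 by edgeR and 0.0523 by DESeq2), and -0.82 without floxed controls 1 and 3. Fut2, the secretor enzyme of gut epithelium, had 7.79, 3.65 and 5.93 CPM in the knockouts and 12.1, 6.88 and 5.91 CPM in the floxed controls. The groups of Fut2 overlapped (log2 -0.52 ± 0.34, 95% interval -1.27 to 0.23). Its value was -0.79 without knockout 1, -0.12 without floxed control 1 and -0.19 without floxed controls 1 and 3. Fut4, which adds the fucose of Lewis x, had 41.2, 30.7 and 26.6 CPM in the knockouts, against 56.3, 40.8 and 52.4 CPM in the floxed controls (log2 -0.60 ± 0.20, adjusted p = 0.227 by edgeR), and its value was -0.25 without floxed controls 1 and 3. Fut8, which fucosylates the core of N-glycans, and Fut11 had log2 fold changes of -0.21 ± 0.17 and -0.14 ± 0.21. Fut7 and Fut10 had at most 4 estimated counts in any library and were not kept.

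The lowest fold changes of the 48 members were those of St6galnac4 and St3gal1, which cap core 1 in sequence. St3gal1 (chr15:67102875-67176946) adds sialic acid to the galactose of core 1. It had 25.1, 15.3 and 12.4 CPM in the knockouts and 64.6, 31.7 and 61.1 CPM in the floxed controls, so the groups did not overlap and floxed control 2 lay well below the other controls. The log2 fold change of St3gal1 was -1.57 ± 0.31 (adjusted p = 0.0952 by edgeR and 0.00013 by DESeq2). St6galnac4 (chr2:32587078-32599696), which adds a second sialic acid to the GalNAc of the same chain, had 3.27, 2.47 and 1.29 CPM in the knockouts and 8.82, 4.46 and 11.4 CPM in the floxed controls. Its log2 fold change was -1.80 ± 0.41 (adjusted p = 0.124 by edgeR and 0.00281 by DESeq2). In both genes floxed controls 1 and 3 were the high libraries, as for the tuft cell, T cell, erythroid and enterocyte marker sums; of the T cell markers 14 of 16 were lower at an unadjusted p under 0.05. Floxed control 2 was also the lowest control on Paneth, goblet and enteroendocrine marker sums. Knockout 1 was the highest knockout in both genes, as it was on tuft, Paneth, goblet and crypt base stem cell marker sums. On T cell, erythroid, enteroendocrine and enterocyte marker sums it was not. Paneth sums were 45426, 31897 and 29695 CPM in knockouts 1, 2 and 3, the order of both genes. Crypt base stem cell sums, at 2817, 2686 and 2016 CPM, had that order too. In floxed controls 1, 2 and 3 Paneth sums were 93095.5, 88145 and 172601 CPM, the order of St6galnac4 but not of St3gal1. Stem cell sums there were 3632, 2865 and 2819 CPM, the order of neither gene. Without floxed controls 1 and 3 the log2 fold changes were -0.79 for St3gal1 and -0.86 for St6galnac4. The part of RNA from any of these cell types in either value was not tested.

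St3gal3 (chr4:117932152-118134972), which sialylates lactosamine and type 1 chains, did not share that order of controls. It had 8.63, 6.12 and 5.71 CPM in the knockouts and 11.4, 13.6 and 17.4 CPM in the floxed controls, with floxed control 1 the lowest control. Its log2 fold change was -1.05 ± 0.24 (adjusted p = 0.124 by edgeR and 0.0135 by DESeq2), and -0.93 without floxed controls 1 and 3. St3gal4, the abundant enzyme of this family, had 697.1, 669.2 and 853.7 CPM in the knockouts and 656.1, 784.2 and 846.5 CPM in the floxed controls (log2 -0.043 ± 0.20, interval -0.50 to 0.41). The log2 ratio of St3gal1 to St3gal4 estimated counts averaged -5.45 ± 0.66 in the knockouts and -3.92 ± 0.65 in the floxed controls (SD, n = 3 each), and the groups did not overlap on it. Nor did they overlap on St3gal1 to C1galt1, at -0.0015 ± 0.37 in the knockouts and 0.77 ± 0.30 in the floxed controls. The gap was narrow there, with 0.42 in knockout 3 and 0.48 in floxed control 2. Both ratios hold St3gal1, whose groups did not overlap by itself, so they are not separate from its own difference. St3gal6, which makes sialylated selectin ligands, had -0.37 ± 0.21, and shares 36.3% of its exon length with Dcbld2 on the opposite strand. St3gal2 had -0.064 ± 0.31. St3gal5 had at most 5 estimated counts in any library and was not kept.

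Of the other GalNAc sialyltransferases, St6galnac2 was the most abundant per kilobase, with 107.6, 92.8 and 106.3 CPM in the knockouts and 111.3, 112.2 and 130.4 CPM in the floxed controls. The groups just failed to overlap, at a log2 fold change of -0.21 ± 0.15 (adjusted p = 0.605 by edgeR). St6galnac1, the sialyl-Tn synthase of goblet cells, had the highest log2 fold change of all members, 0.73 ± 0.50 (adjusted p = 0.566 by edgeR), with 5.19, 1.72 and 2.41 CPM in the knockouts and 2.36, 2.36 and 0.788 CPM in the floxed controls. Its value was 0.15 without knockout 1. St6galnac6 starts 11 bases beyond the end of St6galnac4 on the same strand and had a log2 fold change of -0.25 ± 0.41. St6galnac3 and St6galnac5 had at most 7.47 estimated counts in any library and were not kept. St6gal1, which caps N-glycans, had 4.12, 3.005 and 1.06 CPM in the knockouts and 6.81, 1.90 and 6.60 CPM in the floxed controls (log2 -0.88 ± 0.53). Its high libraries among the controls were again 1 and 3, and without them the log2 fold change was 0.58.

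**Figure D3:**
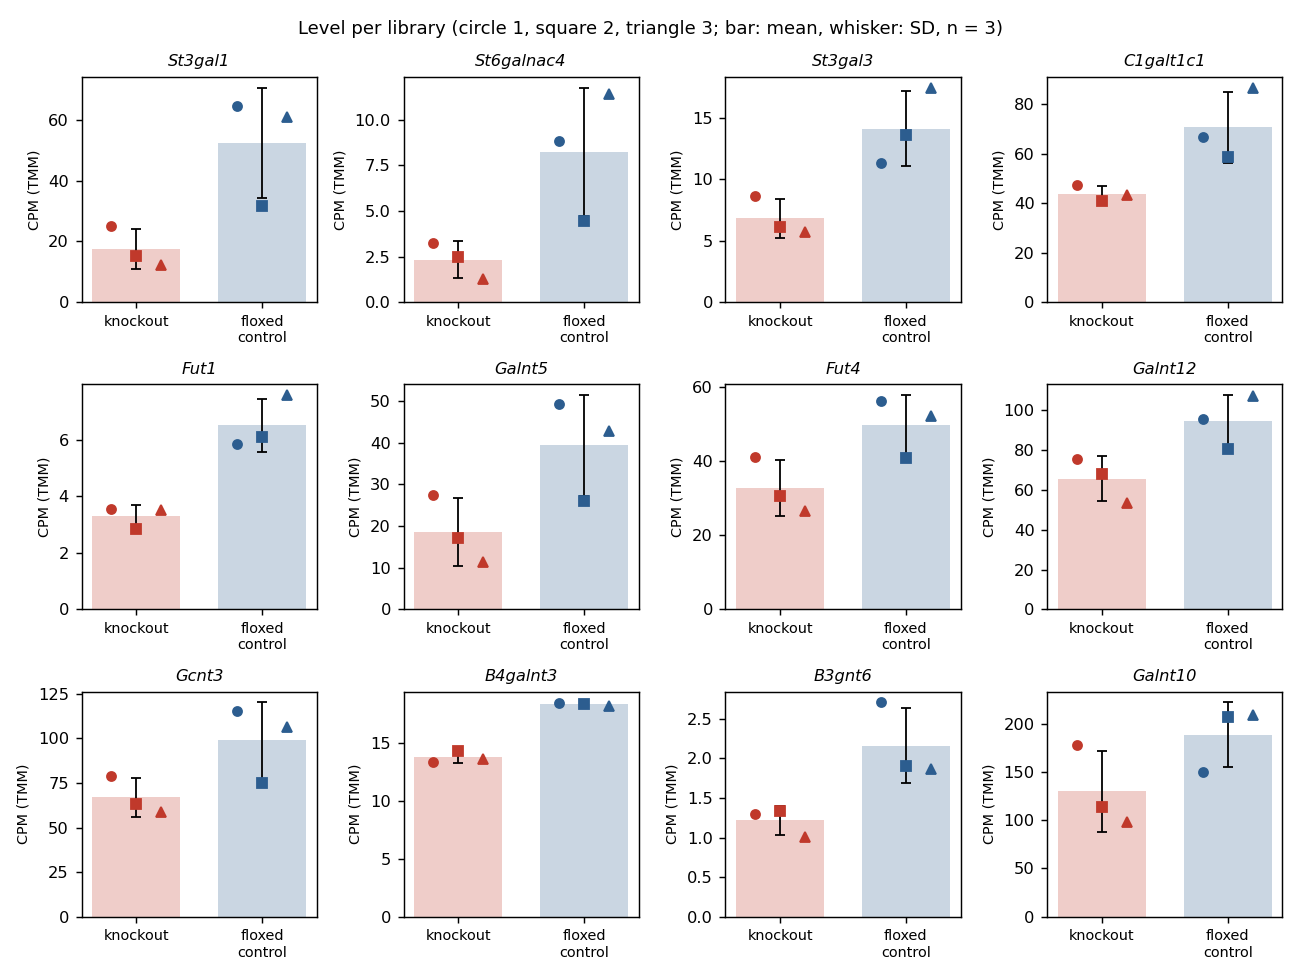
CPM of the 12 members with an unadjusted p under 0.05 in each library, with group means (bars) and SD (whiskers, n = 3). Floxed control 2 (square) is the lowest control for St3gal1, St6galnac4, C1galt1c1, Galnt5, Fut4, Galnt12 and Gcnt3, while the B4galnt3 controls lie between 18.1 and 18.4 CPM.

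**Figure D4:**
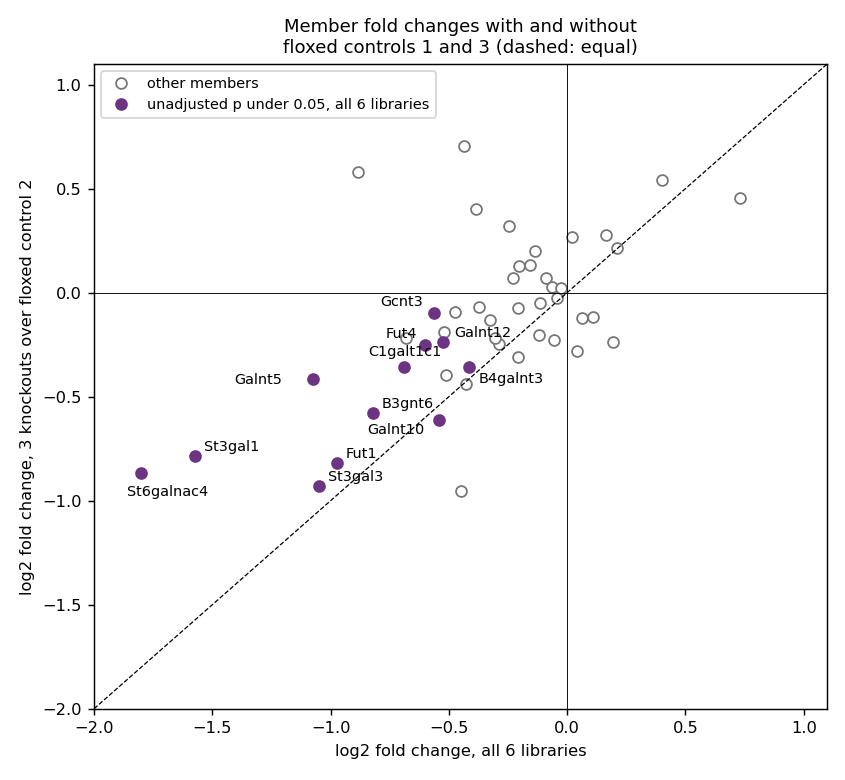
Log2 fold change of each member from all 6 libraries (horizontal axis) and from the 3 knockouts over floxed control 2 alone (vertical axis). St3gal3, Fut1, B4galnt3 and Galnt10 lie close to the line of equal values, at -0.93, -0.82, -0.36 and -0.61 on the vertical axis, whereas St3gal1, St6galnac4, Galnt5 and Gcnt3 lie nearer to 0 there.

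Genes that supply and complete these chains were read from lists of the pathway. At an unadjusted p under 0.05, 9.63% of all genes were lower and 4.09% higher, against which the counts of these lists are read. Of 32 genes that make and carry the sugar nucleotides, 3 were lower and 0 higher at that p (median -0.082), a share of lower genes close to that of all genes. Tsta3, the last enzyme of GDP-fucose synthesis, and Gmppb, which makes GDP-mannose, had log2 fold changes of -0.50 ± 0.21 and -0.44 ± 0.18. The third was Uap1l1, with -0.43 ± 0.18. Of 17 sulphating and other capping enzymes, 2 were lower and 0 higher, with a median of -0.40. One was A4gnt, which adds the terminal GlcNAc of gland mucins, at 8.01, 6.01 and 3.81 CPM in the knockouts and 15.0, 8.79 and 19.005 CPM in the floxed controls (log2 -1.26 ± 0.33, adjusted p = 0.152 by edgeR). The other was Tpst2, a protein tyrosine sulphotransferase (log2 -0.38 ± 0.17). Of 7 B4galt galactosyltransferases 0 were lower or higher at that p (median -0.19), B4galt2 and B4galt5 having the smallest p at log2 -0.75 ± 0.39 and -0.24 ± 0.17. Of 12 N-glycan branching enzymes, 1 was lower and 0 higher, again near the share of all genes (median -0.19): Mgat3, of the bisecting GlcNAc, at log2 -0.46 ± 0.18, with Man1a next at -0.30 ± 0.16. No gene of these 4 lists passed over all genes by edgeR, and DESeq2 called 1, A4gnt.

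Of the 14 tested mucins and mucin-domain proteins, the carriers of these chains, 3 were lower and 1 higher at an unadjusted p under 0.05, with a median of -0.11 and 0 called over all genes by edgeR; DESeq2 called 3 lower. The lower genes were Podxl, Selplg and Spn, and the higher one was Muc6, a gland mucin (log2 1.09 ± 0.49, at most 1.77 CPM in any library). Spn and Selplg are leukocyte sialomucins, and their values were low in floxed control 2 (1.18 and 2.82 CPM) and high in floxed controls 1 and 3. Podxl, a sialomucin of podocytes and vessels, had a log2 fold change of -1.67 ± 0.38. The main secreted mucin of the gut, Muc2, had 1807, 1062 and 887 CPM in the knockouts and 1799, 1553 and 1869 CPM in the floxed controls, and the groups overlapped (log2 -0.48 ± 0.28, adjusted p = 0.494 by edgeR). The order of libraries on summed goblet markers (13818, 8919 and 9102 CPM in the knockouts, 15499, 14831 and 21986 CPM in the floxed controls) was not that on summed members: knockout 1 lay above floxed control 1 on members and below it on goblet markers. On mean centred log2 levels, knockout 1 lay below floxed control 1 on both, at 0.093 and 0.25 for members and -0.034 and 0.32 for goblet markers. Floxed control 2 was at 0.061 for members, below knockout 1, and at 0.12 for goblet markers, above it. The part of goblet and Paneth cell RNA in the member values was not tested.

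The members were also read along a split with knockout 1 and floxed control 2 on one side. An earlier look at these data drew it on circadian clock genes. Within that pair the median of the members was 0.049 on the log2 scale, with 22 of 48 lower in the knockout. Among the remaining 4 libraries it was -0.46, with 38 of 48 lower. Of the members above, Fut1 differed by -0.76 within the pair and -1.04 within the other 4, and B4galnt3 by -0.46 and -0.39. St3gal1 differed by -0.34 and -2.18, and Galnt5 by 0.081 and -1.71. With 1 library of each genotype in the pair, these differences were not tested, and the split itself is taken from the data. On mean centred log2 of the members, knockout 1 was the highest knockout (0.093) and floxed control 2 the lowest control (0.061). A smaller difference in that mean within the pair is thus fixed by which libraries it holds. The medians and the counts of 22 and 38 rest on the same choice of libraries, and stand without a share over all genes. With the split as a term, the median of the members was -0.31.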

How the data were processed

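Total RNA of mouse small intestinal crypts from 3 knockout and 3 floxed control libraries was made into mRNA libraries and read as 50 bp single ends, per the labels' protocols. The build is mm10, going by the submitters' processing notes; aligner, counter, annotation and strand setting are not stated. The deposited values are estimated counts per gene that the authors did not normalise, judged from the values: 31.1% to 35.2% of them per library are not whole, including values of 20 of the 48 members. They were rounded before testing; the design had assumed whole counts. No 2 libraries agreed within sampling noise.

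The whole table was fitted with edgeR 4.0.16 in R 4.3.3 (filterByExpr, TMM, robust glmQLFit, glmQLFTest, knockout over floxed control; biological coefficient of variation 20.3%), with Benjamini-Hochberg adjustment over 12943 genes and a threshold of 0.05. SE is the log2 fold change over the root of the F statistic. The fit was tested on simulated data. Alternatives were DESeq2 1.42.0 (no adjusted p for 251 genes), limma-voom (limma 3.58.1), other scaling and filters, thinning, a replicate block and libraries left out. Coordinates are from RefSeq GRCm38.p6 by gene ID and exon lengths and overlaps from GENCODE, both of the assembly mm10 carries; figures used Python 3.11.15 and matplotlib 3.10.9. With 3 libraries against 3, precision is set mainly by the spread between libraries.

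The members, gene lists, enzyme families, named genes and alternatives were chosen with earlier results of these data known. Named members were those with an unadjusted p under 0.05, a set of anchor enzymes, the extremes of each family and the 3 most abundant per kilobase; other members and Podxl, Selplg, Spn, Muc6 and A4gnt follow from the lists, Slc26a10, Tbcd and Dcbld2 from overlaps, and Defa35 and Trpc2 were chosen after their values were seen. Fpr2 was not analysed here, so the genotype was not checked on the targeted gene.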

Additional observations from a re-analysis of the deposited data

How the results depend on the processing

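The directions of the 12 members with an unadjusted p under 0.05 held in all 16 alternatives. Of 34 named members, 23 kept their direction in every alternative. Without floxed controls 1 and 3, the directions turned for B4galnt1 (-0.12), B4galnt2 (0.023), B4galnt4 (-0.12), Fut11 (0.20), Fut8 (0.13), Galnt4 (0.070), Gcnt1 (0.70) and St6gal1 (0.58). Outside the naming rule they turned for B3gnt2 (0.071), B3gnt5 (0.40), B3gnt8 (-0.24), Galnt11 (0.13), Gcnt7 (-0.28), St3gal2 (0.029) and St6galnac6 (0.32), and 32 of 48 members were negative, against 39 with all libraries. With single libraries left out, the log2 fold change ran from -0.20 to 0.086 for B3gnt3, from -0.069 to 0.21 for B4galnt1, from -0.19 to 0.082 for B4galnt2, from -0.0064 to 0.29 for B4galnt4, from -0.26 to 0.0051 for Fut11, from -0.056 to 0.16 for Galnt1, from -0.80 to 0.21 for Gcnt1 and from -0.15 to 0.077 for St3gal4. The cause was not tested.

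Genes called over all genes numbered 2 by edgeR, 0 with RLE size factors, 67 with no filter beyond 1 count, 342 by DESeq2, 1 by limma-voom, 39 with a replicate block, 1 with the clock-gene split as a term, 12 without floxed controls 1 and 3, and 0 to 955 with single libraries left out. Members called numbered 5 by DESeq2, 1 with a replicate block (St3gal1) and 0 to 7 with single libraries left out. Members lower at an unadjusted p under 0.05 numbered 2 without floxed controls 1 and 3 and 6 to 15 with single libraries left out (6 without floxed control 3, 7 without knockout 3). Over all genes, 4.27% to 14.1% were lower at that p with single libraries left out. With RLE size factors 1 member, B3gntl1, was higher at that p (4.97% of all genes). With single libraries left out 0 to 1 were (1.54% to 10.2% of all genes). Leaving out single libraries put the median between -0.41 and -0.19. The summed level, knockout minus floxed control, was -427 CPM over all libraries and lay between -653 and -225 CPM when single libraries were dropped. Deviations of same-numbered libraries from their group means correlated at -0.18, -0.27 and 0.068. With 3 libraries per group these values cannot show whether animals were paired, and the labels give no pairing. Members under about 1 CPM rest on few counts, and depth limits what they can show.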
